A study of Homo sapiens with 20 samples.

Results

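JUN, FOS, FOSL1, FOSL2, JUNB and ATF3 encode subunits of AP-1, and accessible chromatin at their loci was compared between SW872 cells, an established human liposarcoma line, carrying 7 different vectors. Members were the peaks of 7 deposited ATAC-seq peak lists, 1 for each vector, that overlap a window around each gene in hg19: JUN chr1:59196000-59300000, FOS chr14:75725000-75769000, FOSL1 chr11:65640000-65688000, FOSL2 chr2:28596000-28658000, JUNB chr19:12892000-12914000 and ATF3 chr1:212728000-212804000. These windows span 356 kb and held 693 of 1407450 peaks. Overlapping peaks of all lists were merged into sites, which gave 147 sites at the 6 loci out of 372133 sites in all. A site counted as a promoter site if it came within 1 kb of a start site of the gene, and as distal otherwise. Start sites of other genes were not used, so a distal site can be the promoter of a neighbouring gene.

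ATAC-seq uses the Tn5 transposase to cut and tag open DNA, so that a peak marks accessible chromatin and not transcription. All cells were stably transduced and differed in the vector: the empty vector (EV), the activated full-length mutants TAZ4SA and YAP5SA, full-length CAMTA1, full-length TFE3, and a fusion protein, either TAZ-CAMTA1 or YAP-TFE3. Of the 20 libraries, TFE3 had 2 and every other vector had 3. One EV library carries the word redo in its title, and the titles of the YAP-TFE3 libraries give YAP5SA as the YAP part of that fusion. The proteins were expressed from transgenes in a single cell line, and the study describes its ATAC-seq libraries as biological repeats. Peaks do not measure expression, so the line was not checked against marker genes. Each vector had a single list with no values per library, so no difference reported here has a replicate error or a test. Read depth is unknown for every list. The lists held between 152702 peaks (TAZ4SA) and 236893 peaks (TAZ-CAMTA1).

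AP-1 is a dimer of basic leucine zipper proteins. JUN and JUNB can pair with each other or with FOS, FOSL1 (FRA-1) and FOSL2 (FRA-2), and the dimers bind the TPA response element (TRE) TGAGTCA. ATF3 is a stress-induced member of the ATF group that pairs with JUN proteins and binds the cAMP response element (CRE) TGACGTCA. JUN, FOS, JUNB and ATF3 are immediate early genes, induced within minutes of growth factor or stress signals, whereas FOSL1 and FOSL2 are usually induced later. YAP and TAZ are transcriptional coactivators that bind DNA through TEAD factors, often at enhancers that also hold AP-1 motifs. CAMTA1 is a transcriptional activator, and TFE3 is a basic helix-loop-helix leucine zipper factor that binds E-box elements.

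The 250 bases before the start site are shown for the 4 genes whose strongest promoter site overlapped a start site that RefSeq (GRCh38.p14) lists in the promoter table used, because the promoter sites described next lie over them. The positions in that build are chr1:58784048-58784297 on the minus strand for JUN, chr14:75278578-75278827 for FOS, chr2:28392608-28392857 for FOSL2 and chr19:12791236-12791485 for JUNB, and they cannot be set beside the hg19 positions of the peaks. Capitals mark the motifs found on either strand, and sequences run 5′ to 3′.
JUN: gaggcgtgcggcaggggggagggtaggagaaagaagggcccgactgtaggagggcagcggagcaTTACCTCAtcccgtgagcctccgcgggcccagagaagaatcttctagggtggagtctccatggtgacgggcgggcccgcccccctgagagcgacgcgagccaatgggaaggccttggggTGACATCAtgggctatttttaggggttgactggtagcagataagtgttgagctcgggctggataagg
FOS: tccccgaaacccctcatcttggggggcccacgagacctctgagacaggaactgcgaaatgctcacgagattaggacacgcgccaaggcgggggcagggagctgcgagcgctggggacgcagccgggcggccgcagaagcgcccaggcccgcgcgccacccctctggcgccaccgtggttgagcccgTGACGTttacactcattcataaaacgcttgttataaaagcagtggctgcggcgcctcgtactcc
FOSL2: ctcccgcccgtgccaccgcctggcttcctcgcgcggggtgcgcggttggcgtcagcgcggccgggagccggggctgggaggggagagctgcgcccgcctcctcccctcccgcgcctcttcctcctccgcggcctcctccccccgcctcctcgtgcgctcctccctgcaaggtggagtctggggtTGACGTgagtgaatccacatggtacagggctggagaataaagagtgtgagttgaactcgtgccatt
JUNB: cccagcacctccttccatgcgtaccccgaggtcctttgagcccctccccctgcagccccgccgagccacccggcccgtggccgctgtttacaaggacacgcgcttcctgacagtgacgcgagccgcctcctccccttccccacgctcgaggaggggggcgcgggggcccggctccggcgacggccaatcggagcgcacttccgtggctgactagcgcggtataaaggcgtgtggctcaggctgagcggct

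The JUN promoter held TGACATCA, which is the AP-1 site through which JUN can act on its own gene, starting 67 bases before the start site, and its second such site, TTACCTCA, 186 bases before it. FOS and FOSL2 each held the CRE core TGACGT, 64 and 66 bases before the start. FOSL2 also held the TRE on the other strand, from base 5 after the start, outside the bases shown. The JUNB promoter held none of the motifs searched. Those were the TRE, the full CRE and its core, both JUN sites, the TEAD motif GGAATG and the E-box CACGTG, on both strands, and the core lies within the full CRE. Of 35116 promoters of the same length, the TRE occurred in 4.95%, the full CRE in 1.85%, the first JUN site in 2.61%, its second in 0.715%, the CRE core in 7.98%, the TEAD motif in 14.03% and the E-box in 7.26%. FOSL1 was not matched in the table, so 5 of 6 genes were matched. One ATF3 entry is the first of the 3 start sites used and held TGACATCA 123 bases before it. Another ATF3 entry, chr1:212614768-212615017 in that build, held none of the motifs.

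Peaks at the windows, taken at full width even past a window edge, added up to 18.5% of the window length in the EV list. The share was 15.9% in TAZ4SA, 22.6% in YAP5SA, 25.4% in CAMTA1, 21.0% in TFE3, 26.8% in TAZ-CAMTA1 and 26.2% in YAP-TFE3. TAZ4SA was thus the lowest and both fusions the highest. The bases covered by the whole lists had the same order, from 52834428 in TAZ4SA to 113741751 in TAZ-CAMTA1. The number of peaks did not follow the covered length: it was 87 in EV, 82 in TAZ4SA, 124 in YAP5SA, 111 in CAMTA1, 92 in TFE3, 111 in TAZ-CAMTA1 and 86 in YAP-TFE3. YAP5SA therefore had the most peaks and YAP-TFE3 fewer, broader ones. Over the genome the YAP5SA list held 230886 peaks and the YAP-TFE3 list 235795. The maps of the 6 loci show a broad peak over the main start site of every gene in every list, with narrower peaks on both sides.

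**Figure D1:**
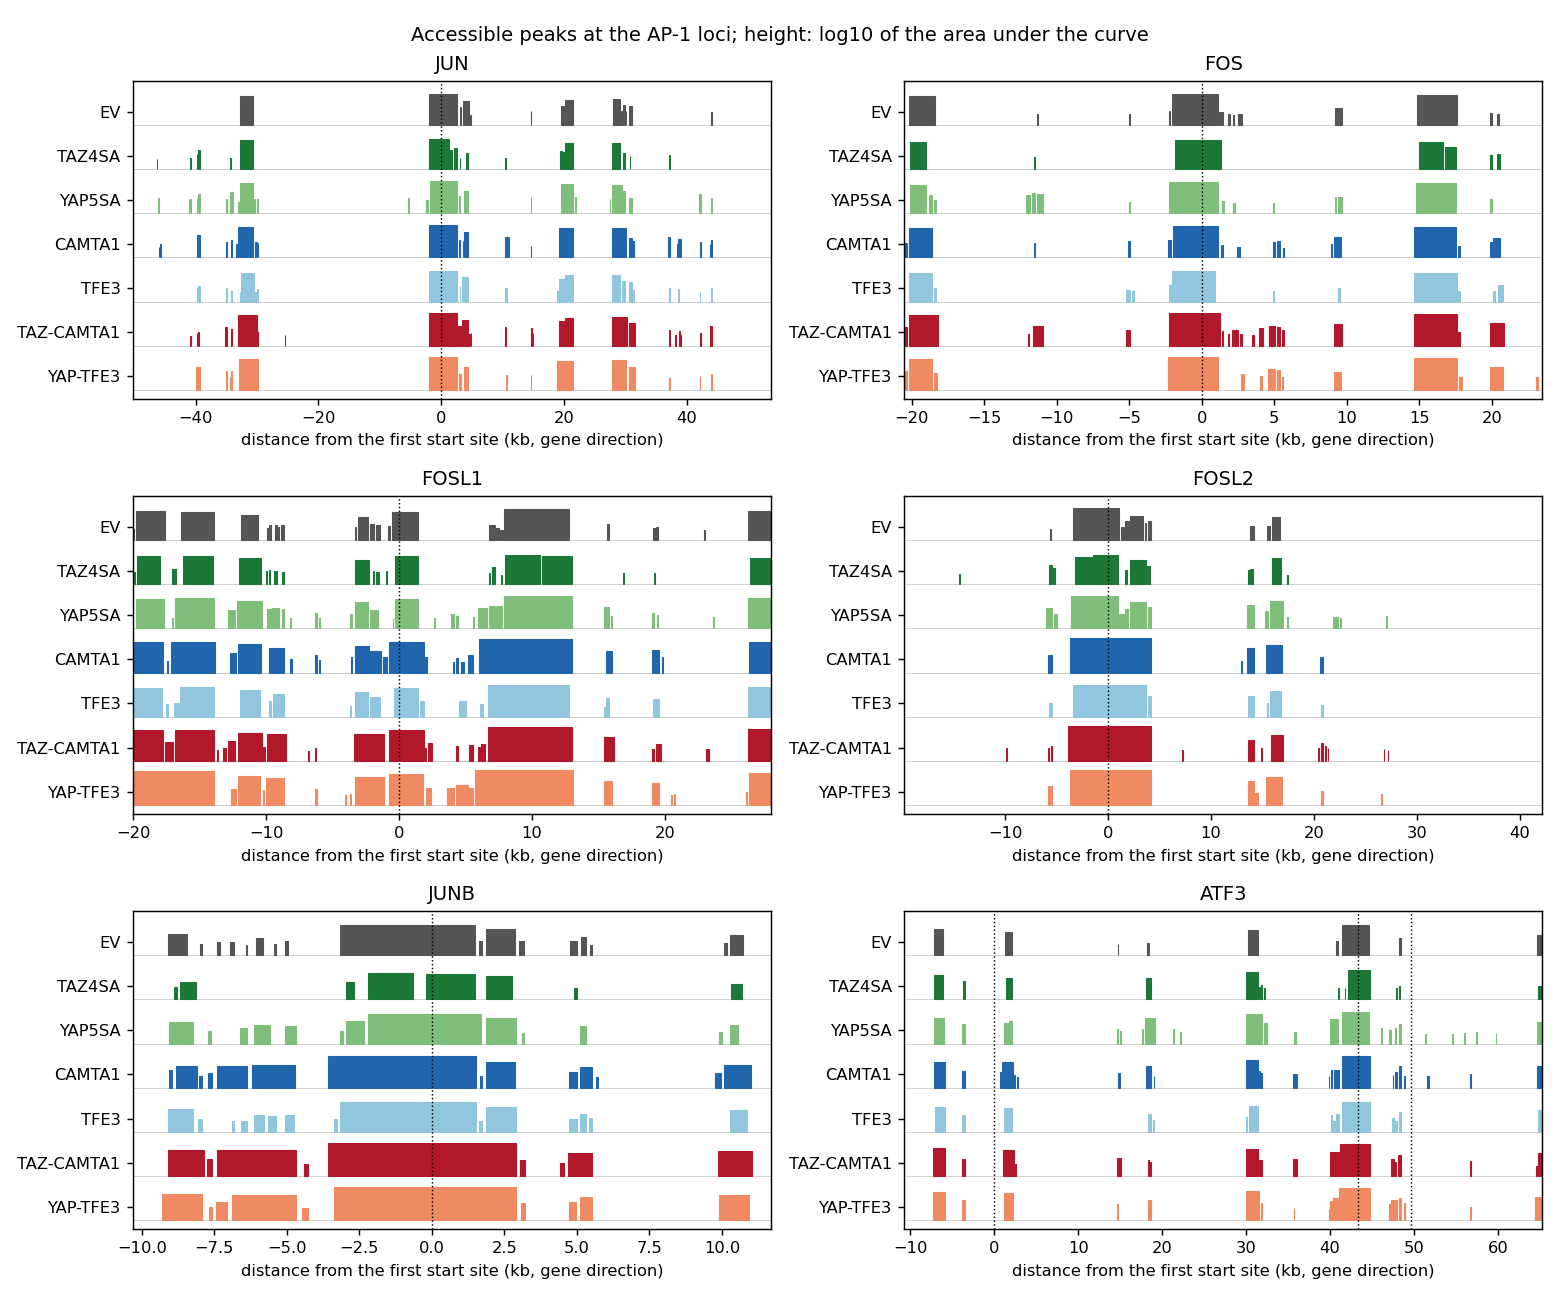
Peaks of the 7 lists at the 6 AP-1 loci, against the distance in kb from the gene's first start site (dotted lines, start sites), running in the direction of the gene. Block height is the log10 of the area under the curve. The strongest ATF3 promoter site lies at the second of its 3 start sites, and FOSL1 is flanked by broad peaks on either side.

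A list's value at a site is the area under the curve that the authors' peak caller assigned to the peaks there, summed over the site. The area is taken over the caller's peak statistic, so a ratio of areas is not a fold change in reads. How it depends on read depth or on the number of libraries, 2 in TFE3 and 3 in the others, was not tested. The lowest area in any list is 20, so a site without a peak lies under that limit and is not a measured 0. Areas of all lists differ in scale. Over the 60372 sites of the genome with a peak in all 7 lists, the median ratio to the EV area was 0.639 in TAZ4SA, 1.32 in YAP5SA, 2.07 in CAMTA1, 1.07 in TFE3, 2.40 in TAZ-CAMTA1 and 2.45 in YAP-TFE3. A scaled ratio is a ratio to EV divided by this median.

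All 6 genes had a promoter site with a large area in every list. JUN, the founding subunit, had its promoter site at chr1:59247217-59251772, with areas of 14644 in EV, 11649 in TAZ4SA, 20112 in YAP5SA, 23736 in CAMTA1, 12435 in TFE3, 25780 in TAZ-CAMTA1 and 26554 in YAP-TFE3. FOS, the partner induced fastest by serum, had areas of 13441, 7812, 14848, 17990, 10233, 20309 and 21889 in the same order at chr14:75743147-75747019. In both genes YAP-TFE3 was the highest and TAZ4SA the lowest.

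FOSL2 had the largest promoter area of the 6 genes, at chr2:28611935-28619934, with 21086 in EV, 15546 in TAZ4SA, 27902 in YAP5SA, 37874 in CAMTA1, 19455 in TFE3, 38241 in TAZ-CAMTA1 and 42394 in YAP-TFE3. FOSL1 had the smallest, at chr11:65666134-65668850, with 6349, 5926, 9047, 10381, 5854, 11372 and 13291 in the same order. These areas are sums over sites of unequal width, so the order of the genes also reflects width. A further FOSL1 site at chr11:65668912-65671355, upstream of the start, had areas from 1699 in EV to 4634 in CAMTA1, with 2043 in TAZ4SA.

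JUNB, a JUN relative that often opposes JUN, had areas of 16071 in EV, 8251 in TAZ4SA, 13709 in YAP5SA, 21154 in CAMTA1, 12352 in TFE3, 26411 in TAZ-CAMTA1 and 29041 in YAP-TFE3 at chr19:12898709-12905207. ATF3 had 12297, 9219, 14154, 17218, 9376, 17947 and 20092 at chr1:212779809-212783489, over its second start site. Near the first ATF3 start site, chr1:212739609-212741006 was weaker, from 787 in TAZ4SA to 3504 in YAP-TFE3. Within 1 kb, the third start site had only a peak of 35.1 in CAMTA1 and of 205 in YAP-TFE3. A site 1.22 kb upstream of it, chr1:212786840-212787179, counted as distal and had a peak in every list, from 65.6 in TAZ4SA to 808 in YAP-TFE3. A peak of 125 near the first start site was in the CAMTA1 list alone.

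The order of the lists by area was YAP-TFE3, TAZ-CAMTA1, CAMTA1, YAP5SA, EV, TFE3 and TAZ4SA at the strongest promoter site of JUN, FOS, FOSL2 and ATF3. JUNB differed in that EV lay above YAP5SA, and FOSL1 in that TAZ4SA lay above TFE3. With no spread between libraries, it cannot be said which neighbours in this order differ.

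**Figure D2:**
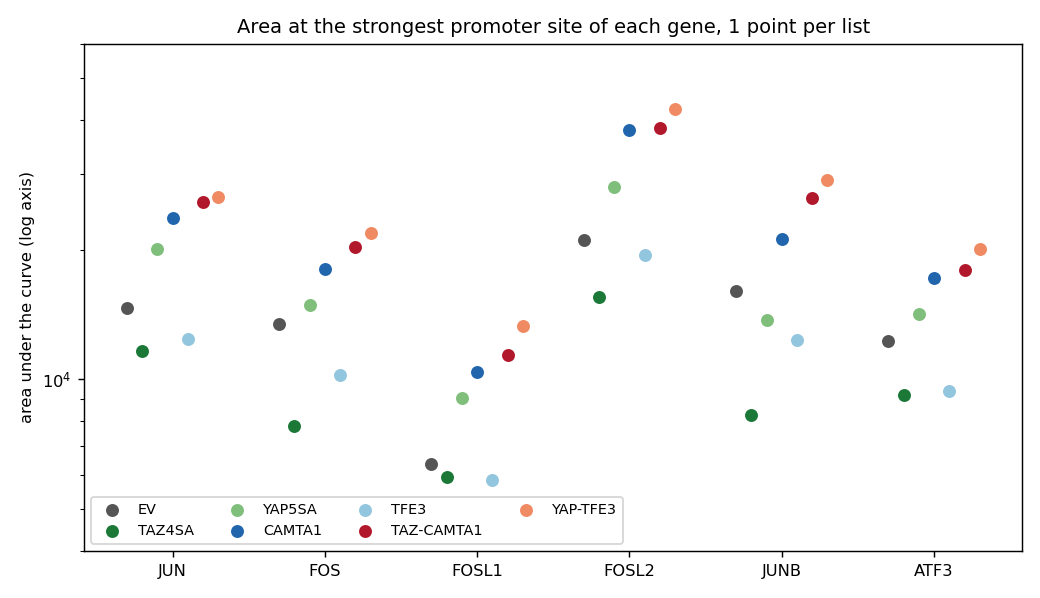
Area under the curve (log axis) at the strongest promoter site of each AP-1 gene, 1 point for each of the 7 lists. YAP-TFE3 and TAZ-CAMTA1 are the highest at all 6 genes, and TAZ4SA is the lowest at 5 of them.

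The shared order largely followed the scale of the lists. Of the 8 promoter sites with a peak in all lists, 0 passed 2-fold against EV after scaling in any list. Over all sites with a peak in EV and the list compared, 17.5% (TFE3) to 23.5% (YAP5SA) were 2-fold higher, and 10.2% (TFE3) to 19.7% (TAZ4SA) lower. These include weaker sites, and the share among sites as strong as the promoters was not computed. The 0 of 8 thus does not set the AP-1 promoters apart. Without scaling, 1 of the 8 was 2-fold higher in YAP5SA, 2 in CAMTA1, 2 in TAZ-CAMTA1 and 4 in YAP-TFE3, and 0 were 2-fold lower in any list. The genome medians before scaling were themselves past 2-fold in CAMTA1, TAZ-CAMTA1 and YAP-TFE3. The scaled ratios of the 8 promoter sites ran from 0.804 to 1.88 in TAZ4SA, from 0.647 to 1.63 in YAP5SA and from 0.635 to 1.32 in CAMTA1. In TFE3 they ran from 0.713 to 1.34, in TAZ-CAMTA1 from 0.609 to 1.04 and in YAP-TFE3 from 0.666 to 1.11. The highest ratios were those of the FOSL1 site upstream of the start, at 1.88 in TAZ4SA and 1.63 in YAP5SA.

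The median scaled log2 ratio of these 8 sites was 0.22 in TAZ4SA, −0.04 in YAP5SA, −0.35 in CAMTA1, −0.27 in TFE3, −0.43 in TAZ-CAMTA1 and −0.36 in YAP-TFE3. The 6038 sites of the genome in the strongest 10% of those in all lists had medians of 0.18, −0.17, −0.47, −0.36, −0.57 and −0.47 in the same order. The direction at the AP-1 promoters was thus that of strong sites in general. With the strongest 10% as the scale, a choice made after seeing the data, the JUN promoter had ratios between 1.02 and 1.17 in every list, and JUNB lay at 0.71 in TAZ4SA, 0.73 in YAP5SA and between 0.88 and 1.02 in the others.

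Promoters of other AP-1 partner genes gave a mixed picture. JUND, the constitutive JUN relative, had areas of 7784 in EV, 4113 in TAZ4SA, 9272 in YAP5SA, 10166 in CAMTA1, 5160 in TFE3, 11500 in TAZ-CAMTA1 and 16136 in YAP-TFE3. FOSB had 7357, 2794, 5849, 7066, 3837, 10328 and 11051, and its scaled ratios lay between 0.463 and 0.614 in all 6 lists. JDP2, a repressor that pairs with JUN, had 2020, 680, 3506, 3528, 2236, 4673 and 4555, with the lowest scaled ratio, 0.527, in TAZ4SA. BATF2 reached a scaled ratio of 1.54 in TFE3, BATF3 stayed between 0.701 and 0.909, and the lymphoid gene BATF had only a peak of 266 in the YAP5SA list. Over the 7 lists, Pearson's r of the scaled log2 area was 0.977 between FOSL2 and JUN, 0.974 between ATF3 and FOSL2, 0.970 between ATF3 and JUN, and 0.961 between FOSL1 and JUN. For FOS the nearest gene was ATF3 at 0.935, and for JUNB it was FOSB at 0.858. These describe 7 points that share the EV reference and the scaling.

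Most sites at the loci were distal, and they varied more between the lists. Distal and promoter sites were not matched for width or area, and the part these have in the difference was not tested. Of the 147 sites, 137 were distal, with a median width of 192 bp against 3199 bp for the 10 promoter sites. Of the distal sites, 27 were found in all 7 lists and 60 in just 1. For all members together, 23.8% of sites were in all lists and 41.5% in a single list, against 16.2% and 42.3% of all sites in the genome. YAP5SA had 21 of the 61 single-list sites, TAZ-CAMTA1 18, CAMTA1 10, YAP-TFE3 7, TAZ4SA 3, EV 1 and TFE3 1. The same split over the genome was not set beside these counts, so they do not set the AP-1 loci apart. The median area of the single-list sites was between 23.7 and 53.4 in each list, close to the lowest area that was listed.

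The loci were built differently. JUN had 31 distal sites, FOSL1 29, ATF3 27, FOSL2 22, FOS 19 and JUNB 9. At FOSL2 the only promoter site carried between 79.4% (YAP5SA) and 92.9% (EV) of the area in the window, and at JUNB between 74.2% (TAZ-CAMTA1) and 94.8% (TAZ4SA). At FOSL1 both promoter sites together carried between 14.9% and 20.1%, and the stronger one alone between 10.71% and 14.94%. Broad peaks toward the neighbouring genes, FIBP and CCDC85B on one side and C11orf68 and DRAP1 on the other, filled much of that window. The strongest ATF3 promoter site carried from 42.5% in YAP5SA to 61.1% in EV, and all promoter sites of ATF3 together from 47.5% to 67.8% in these lists.

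Sites without an EV peak were 99 of the 147, all but 2 of them distal. TAZ4SA had a peak at 13 (13.1%, against 16.9% of all sites without an EV peak), YAP5SA at 44 (44.4% against 36.9%) and CAMTA1 at 40 (40.4% against 33.9%). TFE3 had a peak at 15 (15.2% against 11.4%), TAZ-CAMTA1 at 46 (46.5% against 43.6%) and YAP-TFE3 at 36 (36.4% against 40.9%). The shares at the AP-1 loci were within 8 percentage points of the genome in every list.

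EV peaks were at 48 sites, and the share lost was smaller than over all sites in each list. TAZ4SA had no peak at 12 of them (25.0%, against 44.5% of all EV sites), YAP5SA at 3 (6.25% against 28.2%) and CAMTA1 at 4 (8.33% against 21.9%). TFE3 had none at 8 (16.7% against 31.0%), TAZ-CAMTA1 at 1 (2.08% against 17.2%) and YAP-TFE3 at 5 (10.4% against 20.9%). All of these losses were at distal sites. The windows hold broad, strong sites, and the part that site strength has in this difference was not tested.

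**Figure D3:**
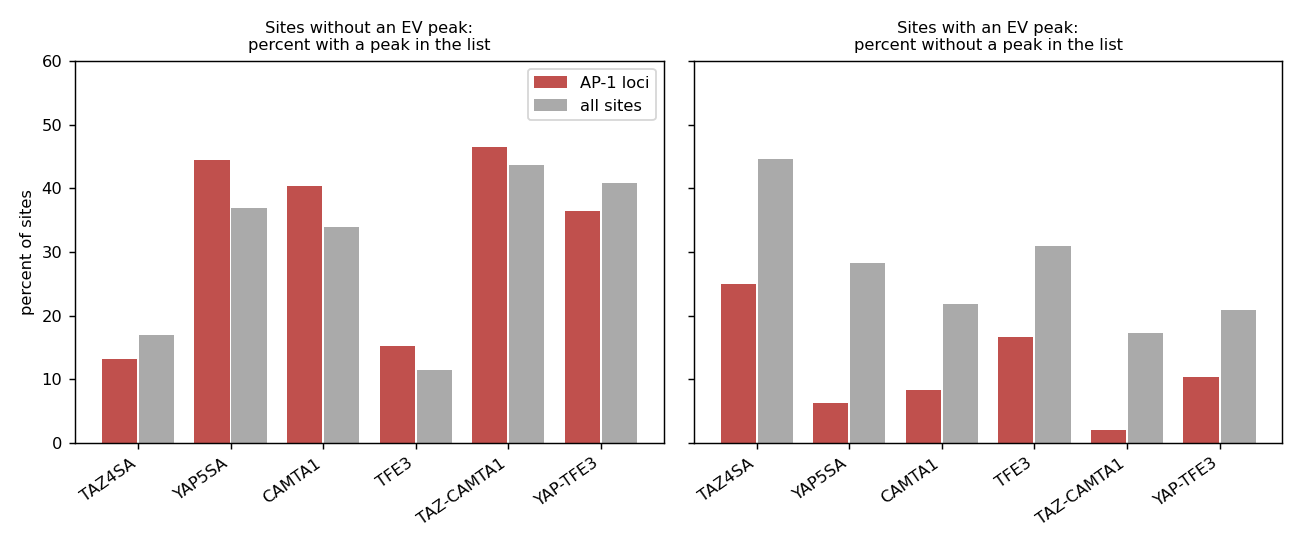
Percent of sites without an EV peak that had a peak in each list (left) and of sites with an EV peak that had none (right), at the 6 AP-1 loci and over all sites. The right panel shows a smaller share at the AP-1 loci in all 6 lists, from 2.08% in TAZ-CAMTA1 to 25.0% in TAZ4SA.

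Each fusion was also set beside the activated mutant of its TAZ or YAP partner and beside its full-length CAMTA1 or TFE3 partner. TAZ-CAMTA1 had a peak at 50 of 98 AP-1 sites that lacked one in TAZ4SA (all sites, 50.9%) and at 26 of 63 that lacked one in CAMTA1 (37.9%). It had none at 6 of 49 TAZ4SA sites (28.9%) and at 17 of 84 CAMTA1 sites (23.1%). YAP-TFE3 had a peak at 21 of 58 sites that lacked one in YAP5SA (43.1%) and at 27 of 92 that lacked one in TFE3 (36.3%). It had none at 31 of 89 YAP5SA sites (34.9%) and at 3 of 55 TFE3 sites (7.26%).

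Among sites with a peak in both lists, the share that was 2-fold higher than EV after scaling lay near that of the genome. TAZ4SA was higher at 8 and lower at 7 of 36 sites (all sites, 21.7% and 19.7%), and YAP5SA was higher at 10 and lower at 7 of 45 (23.5% and 15.0%). CAMTA1 was higher at 10 and lower at 4 of 44 (20.6% and 13.7%), and TFE3 was higher at 9 and lower at 2 of 40 (17.5% and 10.2%). TAZ-CAMTA1 was higher at 9 and lower at 0 of 47 (22.1% and 10.5%), and YAP-TFE3 was higher at 9 and lower at 4 of 43 (21.7% and 13.4%). All these sites were distal. Without scaling, the numbers higher and lower were 4 and 11 in TAZ4SA, 14 and 4 in YAP5SA, and 22 and 2 in CAMTA1. They were 9 and 2 in TFE3, 28 and 0 in TAZ-CAMTA1, and 30 and 1 in YAP-TFE3. No share over all sites is given for these unscaled counts. The unscaled genome medians of sites in all lists were themselves past 2-fold in CAMTA1 (2.07), TAZ-CAMTA1 (2.40) and YAP-TFE3 (2.45).

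**Figure D4:**
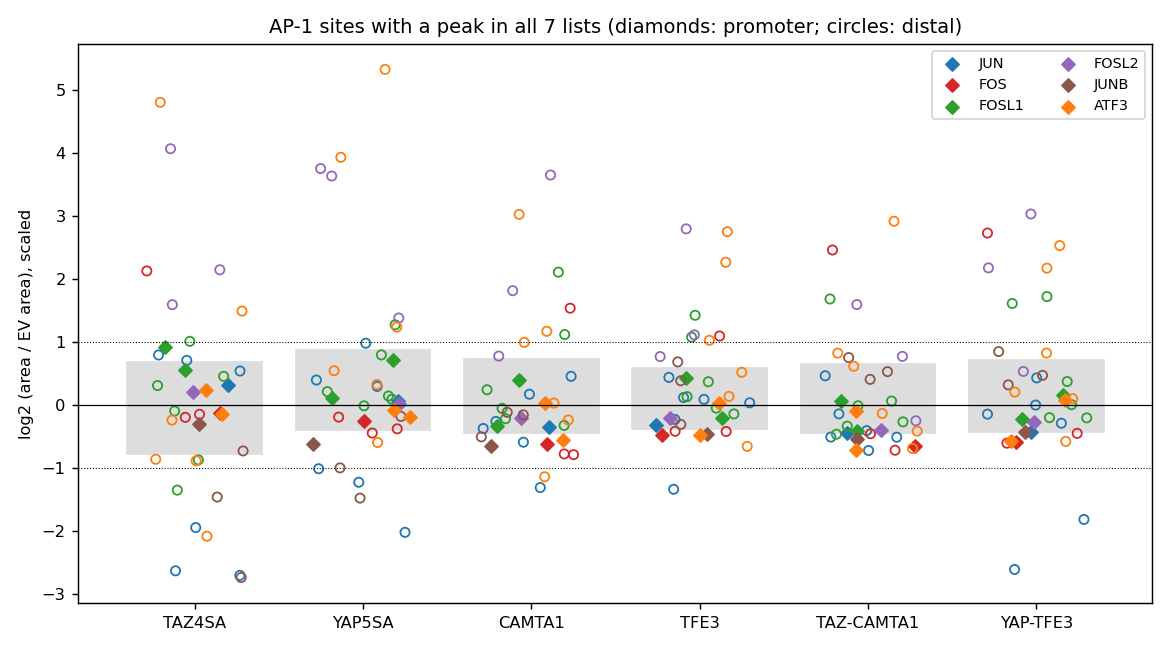
Scaled log2 ratio of area to EV at the 35 AP-1 sites with a peak in all lists, with promoter sites as diamonds and distal sites as circles, coloured by gene. Grey boxes span the middle 50% of all such sites in the genome, dotted lines mark 2-fold, and points are spread sideways at random. Diamonds stay within 2-fold in every list, and so do the grey boxes.

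By scaled summed area, a 2-fold difference from EV in 3 or more lists was found at 11 distal sites, 9 of them higher and 2 lower. They were among 45 AP-1 sites with an EV peak and 3 or more others, and over all such sites 19.9% were higher and 7.51% lower by the same rule, so neither share stood far from that of the genome. The EV area was under 120 at 7 of the 11, so the ratios there rest on weak EV peaks. Per covered base, several of the 11 no longer met the rule, as the values given with the sites below show. At chr11:65651797-65652609 of FOSL1 no list passed 2-fold per covered base. YAP5SA had the highest scaled ratio at 4 of the 11 sites, YAP-TFE3 at 3, and TAZ4SA, CAMTA1, TFE3 and TAZ-CAMTA1 at 1 each. The TFE3 and TAZ-CAMTA1 cases were the 2 lower sites, at JUN, where these highest ratios were only 1.02 and 0.604.

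At ATF3, a site 17.9 kb downstream of the first start, chr1:212756599-212757860, had an area of 43.1 in EV, 766 in TAZ4SA, 2271 in YAP5SA, 725 in CAMTA1, 308 in TFE3, 182 in TAZ-CAMTA1 and 473 in YAP-TFE3. Its scaled ratios were 27.8 in TAZ4SA, 39.9 in YAP5SA, 8.10 in CAMTA1, 6.70 in TFE3, 1.76 in TAZ-CAMTA1 and 4.49 in YAP-TFE3. The activated full-length coactivators were the highest, above both fusions, and per covered base the ratios shrank to 6.95 in TAZ4SA and 7.48 in YAP5SA. A stronger ATF3 site at −11.4 kb from the second start, chr1:212768664-212770587, had areas of 2528 in EV, 4516 in TAZ4SA, 7825 in YAP5SA, 5328 in CAMTA1, 2954 in TFE3, 4524 in TAZ-CAMTA1 and 6600 in YAP-TFE3. Its scaled ratios were 2.80 in TAZ4SA and 2.35 in YAP5SA, and between 0.747 and 1.09 elsewhere. Per covered base neither passed 2-fold, at 1.38 and 1.40.

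Another ATF3 site, chr1:212778734-212779735, just upstream of the main promoter site, showed another pattern. Its areas were 88.6 in EV, 30.5 in TAZ4SA, 1774 in YAP5SA, 411 in CAMTA1, 452 in TFE3, 1594 in TAZ-CAMTA1 and 1247 in YAP-TFE3. TAZ4SA was the lowest here, with a scaled ratio of 0.539, while TAZ-CAMTA1 reached 7.51 and YAP5SA 15.2. Per covered base these were 0.922, 2.43 and 4.08, YAP-TFE3 was at 2.15, and CAMTA1 and TFE3 fell under 2-fold, at 0.938 and 1.65.

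At FOSL2 the site at −5.48 kb, chr2:28609752-28610321, had areas of 32.2 in EV, 343 in TAZ4SA, 524 in YAP5SA, 233 in CAMTA1, 73.9 in TFE3, 131 in TAZ-CAMTA1 and 354 in YAP-TFE3. TAZ4SA and YAP5SA led again, with scaled ratios of 16.7 and 12.4, which were 4.87 and 2.20 per covered base, where every other list was under 2-fold. Downstream, chr2:28631084-28632776 had 1509, 2893, 5161, 5335, 2733, 3027 and 5318 in the same order, with scaled ratios of 3.00 in TAZ4SA, 2.59 in YAP5SA and 0.837 in TAZ-CAMTA1. Per covered base TAZ4SA was at 2.61 and YAP5SA just under 2-fold, at 1.99. The site chr2:28629324-28629965, 13.5 kb downstream, was higher than EV in all 6 lists, with areas of 72.8 in EV, 205 in TAZ4SA, 1288 in YAP5SA, 1885 in CAMTA1, 537 in TFE3, 524 in TAZ-CAMTA1 and 1449 in YAP-TFE3. Its scaled ratios ran from 3.01 in TAZ-CAMTA1 to 13.4 in YAP5SA, and it stayed past 2-fold in all 6 lists per covered base, from 2.59 to 8.28.

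At FOS, chr14:75733808-75734545, upstream of the gene, was mostly a YAP5SA site. Its area was 27.7 in EV, 48.6 in TAZ4SA, 1210 in YAP5SA, 83.9 in CAMTA1 and 435 in TAZ-CAMTA1, and the TFE3 and YAP-TFE3 lists had no peak there. The fusion with a YAP part thus lacked the peak that was strongest in YAP5SA. The scaled ratio of YAP5SA was 33.2, and 6.46 per covered base, while that of TAZ-CAMTA1 was 6.57 and fell to 1.40. Downstream of FOS, chr14:75765384-75766337 had areas of 75.0 in EV, 208 in TAZ4SA, 75.7 in YAP5SA, 449 in CAMTA1, 170 in TFE3, 983 in TAZ-CAMTA1 and 1210 in YAP-TFE3. Both fusions were the highest there, with scaled ratios of 5.48 and 6.60, and YAP5SA was at 0.766. Per covered base the order changed, with TAZ4SA the highest at 2.17, the fusions under 2-fold at 1.62 and 1.88, and YAP5SA at 1.53.

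The FOSL1 locus had 3 such sites. The one at −8.54 kb, chr11:65676542-65678019, had areas of 431 in EV, 256 in TAZ4SA, 1366 in YAP5SA, 1930 in CAMTA1, 1228 in TFE3, 3297 in TAZ-CAMTA1 and 3459 in YAP-TFE3, and only TAZ4SA stayed under 2-fold of EV, at a scaled ratio of 0.932. On the other side of the gene, chr11:65651797-65652609 had areas of 160 in EV, 672 in YAP5SA, 863 in CAMTA1, 304 in TFE3, 1277 in TAZ-CAMTA1 and 1505 in YAP-TFE3, and no TAZ4SA peak. Per covered base, YAP5SA, CAMTA1 and TFE3 fell under 2-fold at the first site, at 1.55, 1.48 and 1.77, the fusions were both at 2.01, and no list passed 2-fold at the second. The third, chr11:65648289-65648970, was led by CAMTA1 with 1015 and YAP-TFE3 with 849, against 114 in EV, 28.4 in TAZ4SA, 165 in YAP5SA, 256 in TFE3 and 216 in TAZ-CAMTA1. Both fusions had similar areas at the former pair, and the CAMTA1 list lay above the TAZ-CAMTA1 list at the third. At that site CAMTA1 and YAP-TFE3 stayed past 2-fold per covered base, at 2.95 and 2.12, and TFE3 did not, at 1.35.

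Both sites that were lower lay just downstream of the JUN promoter. At chr1:59245307-59246351, 3.45 kb from the start, the area was 1659 in EV, 162 in TAZ4SA, 931 in YAP5SA, 2275 in CAMTA1, 1807 in TFE3, 2781 in TAZ-CAMTA1 and 1148 in YAP-TFE3. The scaled ratios were 0.153 in TAZ4SA, 0.426 in YAP5SA and 0.283 in YAP-TFE3, and between 0.661 and 1.02 in CAMTA1, TFE3 and TAZ-CAMTA1. Next to it, chr1:59246604-59246990 had areas of 270, 27.7, 176, 225, 113, 390 and 108 in the usual order, with the lowest scaled ratios in TAZ4SA at 0.161 and YAP-TFE3 at 0.163. Per covered base TAZ4SA remained under 0.5 at both sites, at 0.30 and 0.28, and YAP5SA did not, at 0.62 and 0.60. YAP-TFE3 was at 0.508 and 0.192, and at the second site CAMTA1 and TFE3 lost their calls, at 0.677 and 0.596, while TAZ-CAMTA1 came to 0.431.

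**Figure D5:**
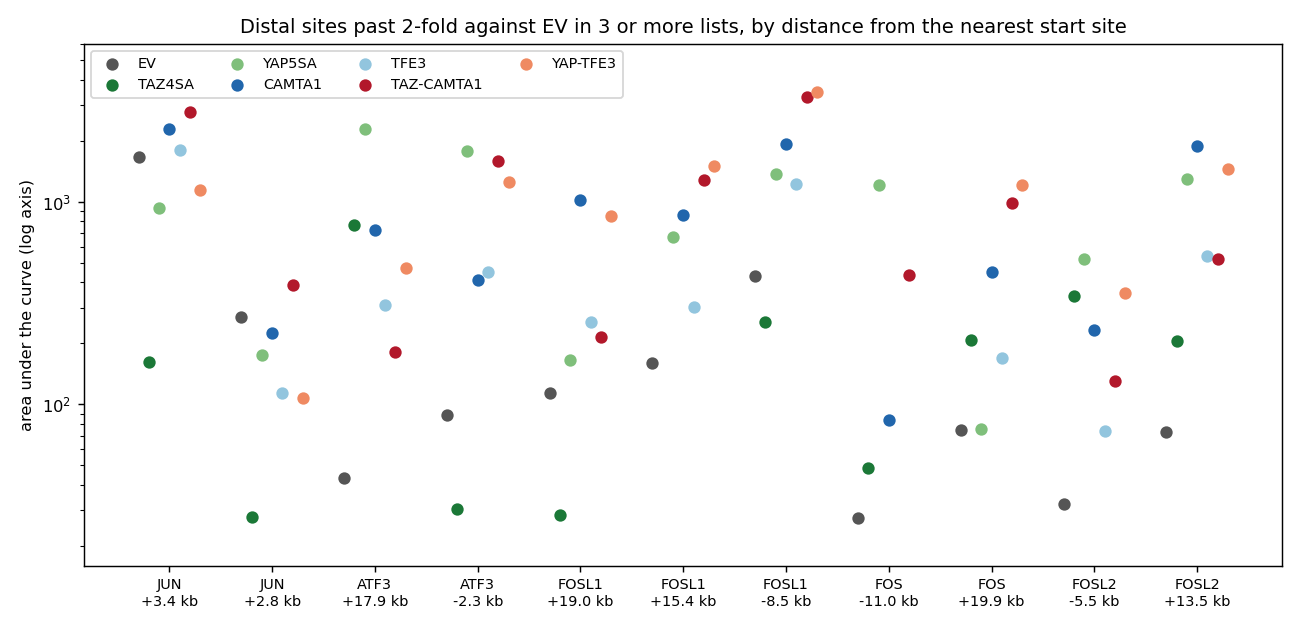
Area under the curve (log axis) at the 11 distal AP-1 sites that passed 2-fold against EV in 3 or more lists, labelled by gene and distance in kb from the nearest start site, 1 point for each list with a peak. EV (grey) is the lowest or the next lowest at 9 sites and lies above TAZ4SA, YAP5SA and YAP-TFE3 at the 2 JUN sites. The sites were chosen by their scaled ratio to EV, so this place of EV largely follows from the choice.

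The strongest distal sites shared by all lists at JUN, FOS and FOSL1 moved less. JUN had an upstream site at −29.8 kb, chr1:59279638-59282922, with areas from 6061 in TFE3 to 13325 in YAP-TFE3 and 6686 in EV. Its downstream sites chr1:59228262-59230904 and chr1:59219509-59222034 had scaled ratios of 1.73 and 1.45 in TAZ4SA, 1.96 and 1.31 in YAP5SA, and 0.903 and 0.751 in TAZ-CAMTA1. FOS had chr14:75760115-75763089, 14.6 kb downstream, from 5317 in TAZ4SA to 16524 in YAP-TFE3. FOSL1 had chr11:65654942-65662251, 5.75 kb downstream toward FIBP and CCDC85B, from 14046 in TAZ4SA to 39417 in YAP-TFE3. Whether that FOSL1 site covers the start sites of these neighbours was not checked. The scaled ratios of the sites in this paragraph stayed within 2-fold in every list.

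JUNB had low TAZ4SA and YAP5SA values at its downstream flank. At chr19:12907009-12907819, 4.71 kb downstream and on the side of PRDX2, the areas were 414 in EV, 39.5 in TAZ4SA, 195 in YAP5SA, 789 in CAMTA1, 355 in TFE3, 1309 in TAZ-CAMTA1 and 1259 in YAP-TFE3. At chr19:12912056-12913338 they were 560, 129, 368, 1038, 777, 2251 and 1890 in the same order. The scaled ratios were 0.149 and 0.362 in TAZ4SA and 0.358 and 0.499 in YAP5SA at these sites, and between 0.804 and 1.68 in the other 4 lists. Per covered base only TAZ4SA at the outer site stayed under 0.5, at 0.379, while TAZ4SA was at 0.714 at the nearer site. YAP5SA was at 0.873 and 0.770, and CAMTA1 at 0.856 and 0.532. Upstream of JUNB, chr19:12892987-12894430 had scaled ratios of 0.601 in TAZ4SA and 0.878 in YAP5SA. At chr19:12894862-12897625, also upstream, TAZ4SA had no peak and YAP5SA was at 1.14.

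Absent from EV and present in 3 or more other lists were 25 distal sites, 8 at JUN, 6 at FOSL1, 5 at FOS, 4 at ATF3, 1 at FOSL2 and 1 at JUNB. They made up 25.3% of the 99 AP-1 sites without an EV peak, against 22.4% over all such sites. CAMTA1 had a peak at 24 of them, TAZ-CAMTA1 at 23, YAP-TFE3 at 23, YAP5SA at 15, TFE3 at 14 and TAZ4SA at 7. Over all 55036 sites of this class in the genome the shares with a peak were 81.7% in CAMTA1, 85.0% in TAZ-CAMTA1, 86.0% in YAP-TFE3, 64.1% in YAP5SA, 43.7% in TFE3 and 29.7% in TAZ4SA, the same order but for CAMTA1. The median area of these peaks was between 36.2 in TAZ4SA and 190 in TAZ-CAMTA1. TAZ4SA had the fewest peaks there, and its list was also the shortest.

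The largest areas in this group were at JUN. At −39.3 kb, chr1:59289111-59289684 had no EV peak and areas of 456 in TAZ4SA, 512 in YAP5SA, 1105 in CAMTA1, 161 in TFE3, 113 in TAZ-CAMTA1 and 1124 in YAP-TFE3. At −34.0 kb, chr1:59283790-59284283 had 36.2, 755, 215, 23.7, 172 and 349 in the same order. The fusions were unlike at the former, where YAP-TFE3 was near CAMTA1 and TAZ-CAMTA1 was the lowest of the 6. Upstream of the first ATF3 start, chr1:212734870-212735257 had 263, 360, 146, 149, 195 and 425, with every list but EV having a peak.

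Downstream of FOS lay a run of 3 neighbouring sites, chosen after their values were seen, where both fusions were the highest. The first, chr14:75750086-75750553, had 22.8 in YAP5SA, 108 in CAMTA1, 21.8 in TFE3, 465 in TAZ-CAMTA1 and 576 in YAP-TFE3. At chr14:75750676-75750924 there were peaks only in CAMTA1 (147), TAZ-CAMTA1 (265) and YAP-TFE3 (381), and at chr14:75751056-75751186 only in CAMTA1 (20.7), TAZ-CAMTA1 (114) and YAP-TFE3 (50.3). Neither EV nor TAZ4SA had a peak at any of the 3. These areas are unscaled, and the fusion lists had the largest scale over the genome, 2.40 in TAZ-CAMTA1 and 2.45 in YAP-TFE3. Among the 25 sites absent from EV and in 3 or more lists, each fusion had the highest area at 8. The run therefore does not set FOS apart. In the opposite class, sites in EV and absent from 3 or more lists, there were 4 (8.33% of the 48 EV sites, against 27.8% over all EV sites), with EV areas of 22.3, 25.7, 27.8 and 93.0. The last, chr19:12905287-12905508 downstream of JUNB, was still in YAP5SA (25.6), TAZ-CAMTA1 (134) and YAP-TFE3 (179).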

How the data were processed

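The data were 7 ATAC-seq peak lists in hg19, 1 for each vector, made by the authors from 20 libraries. The study's methods name NGmerge for trimming, BWA-MEM for alignment and Genrich, in its mode for ATAC-seq, for peaks, without PCR duplicates and blacklisted regions. The submitters' processing notes instead name Bowtie 0.12.2 and mm8. The lists reach base 249240671 of chromosome 1, beyond the end of that chromosome in hg38, so the hg38 reference was not used for coordinates. The methods describe calling on each replicate separately, whereas 1 list for each vector was deposited. How the libraries were combined is not stated, so it is not known whether an area stands for all libraries of a vector.

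The signal the authors deposited for a peak is an area under the curve, taken by Genrich over the peak's statistic. The −log10 p of the peak summit, also deposited, served as a filter in one alternative. Peaks of all lists that overlapped by 1 bp were merged into sites (Python 3.11.15, numpy 2.4.6, pandas 2.3.3). A site that reached past a window was kept whole. Start sites were general knowledge of hg19 to the nearest 100 bp, not read from an annotation of that build, and a promoter site lay within 1 kb of one. The order of neighbouring genes came from RefSeq GRCh38.p14. The calculation was tested on simulated peaks.

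Sites named in the text were every promoter site and distal sites that were in all lists with the largest median area (up to 3 for each locus), absent from EV and in at least 3 lists, in EV and absent from at least 3 lists, or past 2-fold in at least 3 lists. Only some of the first and second kind are given in full. For the other AP-1 genes only promoters were used. The members and lists were chosen with earlier results of these data known, and the motifs TTACCTCA and TGACGT were added after the promoter sequences were seen.

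The alternatives were no scaling, area per covered base, a minimum summit −log10 p (4), the same peak number for all lists (152702, taken by −log10 p), summits extended by 250 bp on both sides, and start sites within 2 kb. Scaling on the strongest 10% of sites was chosen after seeing the data.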

Additional observations from a re-analysis of the deposited data

How the results depend on the processing

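No paired analysis was possible because single libraries have no values in the lists, and for the same reason no library could be left out. With a minimum −log10 p of 4, the same peak number for all lists or fixed windows around summits, the 147 AP-1 sites became 106, 99 and 127, and the number in all 7 lists went from 35 to 34 under each. With start sites within 2 kb, 16 sites counted as promoter sites instead of 10. Among the added sites was chr1:212786840-212787179 at ATF3, with a scaled ratio of 2.03 in TFE3, which was 1.26 per covered base.

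Peaks gained against EV numbered 7 in TFE3 and 22 in YAP-TFE3 at a −log10 p of at least 4, and 23 in YAP5SA, 24 in TAZ-CAMTA1 and 18 in YAP-TFE3 with equal numbers of peaks. EV peaks lost numbered 4 in TFE3 and 2 in YAP-TFE3 under the former, and 5 in TFE3 and 2 in TAZ-CAMTA1 under the latter. These alternatives keep fewer peaks by construction.

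Without scaling, sites 2-fold higher than EV numbered 4 in TAZ4SA, 22 in CAMTA1, 28 in TAZ-CAMTA1 and 30 in YAP-TFE3, and sites 2-fold lower numbered 11 in TAZ4SA, 4 in YAP5SA, 2 in CAMTA1 and 1 in YAP-TFE3. Per covered base, sites higher numbered 5 in YAP5SA, 3 in CAMTA1, 2 in TFE3, 4 in TAZ-CAMTA1 and 5 in YAP-TFE3, and sites lower numbered 4 in TAZ4SA, 2 in YAP5SA, 0 in TFE3, 1 in TAZ-CAMTA1 and 1 in YAP-TFE3. Scaled on the strongest 10% of sites, 17 sites were higher in TAZ-CAMTA1, and 2 were lower in CAMTA1, 1 in TFE3 and 2 in YAP-TFE3. The area grows with peak width, so per-base values remove part of a difference in width. No share over all sites is given under these alternatives, and the cause of the other shifts was not tested.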
